A study of Mus musculus with 56 samples.

Results

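The CYP4 fatty acid hydroxylases examined here were Cyp4a10, Cyp4a12a, Cyp4a12b, Cyp4a14, Cyp4a31, Cyp4a32 and Cyp4b1, 7 of the 17027 genes in the kidney expression table. They were chosen by their measured level difference between daytime and nighttime feeding, Cyp4a14 having the largest lasting rise under daytime feeding. That difference is therefore given below as a description, with no test. All 7 had values in every library and passed the filter on low values (mean TPM of at least 1), among 12196 genes tested. TPM is here the share of a gene among the 15354 genes whose reads were recovered, after division by gene length, scaled to the same sum in each library.

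The kidneys came from 56 female C57BL/6J mice aged 9 weeks that had been kept on 12 h of light and 12 h of darkness. For 7 days the mice had food only in the dark phase (nighttime-restricted feeding, NRF) or only in the light phase (daytime-restricted feeding, DRF). Each of 14 groups held 4 mice of 1 regimen and 1 time, given as zeitgeber time (ZT), the hours since the lights came on: 0, 4, 8, 12, 16, 20 or 24. Poly(A) RNA of 1 kidney sample per mouse was sequenced. A library named as NRF ZT24 carries a number that is on no label, and a labelled NRF ZT24 sample has no values. That library was used as an NRF ZT24 library by its name. The labels name no transgene or deletion, and the regimens differed in when food was present. A whole kidney holds many cell types, and in such a bulk sample fewer cells of a type and less RNA per cell cannot be told apart.

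The effective size of the libraries lay between 24.8 and 28.9 M reads. Markers of the proximal tubule, the nephron segment in which these enzymes are mainly found, were abundant in sum in all libraries. The S1 and S2 markers summed to 6428 to 13959 TPM and the S3 markers to 3887 to 6989 TPM. Slc27a2 and Acy3, with medians of 2874 and 1662 TPM, carried most of the S3 sum. The S3 markers Cyp7b1 and Slc7a13 were low, with medians of 7.16 and 1.65 TPM. The lung marker Sftpb, read because lung is a known site of Cyp4b1, was at 0 in 43 libraries and reached 0.142 TPM. Liver, another Cyp4a-rich tissue, was read through 9 of 11 marker genes, which summed to 415 to 995 TPM. Cyp2e1 and Ttr, with medians of 261 and 167 TPM, carried most of this sum, and the median of Alb was 38.2 TPM, while Ahsg was at 0 in 14 libraries and Mup3 at 0 in 21. Adipose markers summed to 0.250 to 3028 TPM, with all values above 617 TPM in NRF libraries, and their defining gene Adipoq was at 0 in 7 libraries. The adrenal markers summed to 4.03 to 7.24 TPM. The NRF ZT4 library of replicate 3 stood apart, being far above the rest of its group in 5 of the 7 genes. Some of the results are also given without it.

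CYP4 enzymes are cytochromes P450 of the endoplasmic reticulum that add a hydroxyl group at or near the methyl end of a fatty acid, with electrons supplied by the reductase POR. The products enter dicarboxylic acid breakdown in peroxisomes, and from arachidonic acid some of the enzymes make 20-HETE, a lipid that acts on renal vessels and on salt transport in the tubule. Cyp4a10 and Cyp4a14 are classical targets of PPARA, the nuclear receptor that is activated by fatty acids in fasting. Cyp4a12 enzymes are known in mice as androgen-dependent and as makers of 20-HETE, and Cyp4b1 acts on shorter fatty acids and on foreign compounds.

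The 7 genes lie side by side on chromosome 4 (GRCm38). The 6 Cyp4a genes spanned 323 kb from the start of Cyp4a12a to the end of Cyp4a32, and Cyp4b1 followed after a gap of 3.12 kb. The order was Cyp4a12a (chr4:115299046-115332815, plus strand), Cyp4a12b (chr4:115411624-115439034, plus), Cyp4a14 (chr4:115486200-115496142, minus), Cyp4a10 (chr4:115518264-115533649, plus), Cyp4a31 (chr4:115563649-115579015, plus), Cyp4a32 (chr4:115600969-115621602, plus) and Cyp4b1 (chr4:115624725-115647723, minus). Cyp4a14 and Cyp4b1 were thus the members read from the minus strand.

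The coding stretch around the codon of the cysteine that holds the haem iron is shown because it lets the near-identical copies be seen beside the distinct members. Each line is 63 coding bases on the gene's own strand, 5′ to 3′, from GENCODE transcripts, with exons 11 and 12 joined in Cyp4a14 and all other Cyp4a genes. Capitals mark the bases that differ from Cyp4a14, whose line holds coding bases 1330 to 1392.
Cyp4a14: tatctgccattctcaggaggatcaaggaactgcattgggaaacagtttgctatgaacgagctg
Cyp4a10, Cyp4a31 and Cyp4a32: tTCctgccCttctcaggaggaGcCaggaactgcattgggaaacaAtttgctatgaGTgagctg
Cyp4a12a and Cyp4a12b: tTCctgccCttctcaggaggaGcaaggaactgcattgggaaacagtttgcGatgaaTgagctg
Cyp4b1: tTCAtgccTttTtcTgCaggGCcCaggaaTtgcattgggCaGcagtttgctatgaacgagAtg
In the genome the windows cross an intron. They lie at chr4:115487275-115489814 in Cyp4a14, at chr4:115529493-115532567 in Cyp4a10 and at chr4:115625192-115625671 in Cyp4b1.

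The window was the same in Cyp4a10, Cyp4a31 and Cyp4a32, which differed from Cyp4a14 at 8 of the bases. It was also the same in Cyp4a12a and Cyp4a12b, which differed from Cyp4a14 at 6, and Cyp4b1 differed at 14. Over the whole coding sequence, identity was 96.59% between Cyp4a10 and Cyp4a31, 97.18% between Cyp4a10 and Cyp4a32 and 98.49% between Cyp4a12a and Cyp4a12b. Cyp4a14 stood further off, at 75.02% to 75.94% identity with the other Cyp4a genes, and Cyp4b1 at 58.15% to 59.36% with any of them.

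These copies matter for the values. Runs of 100 coding bases shared with another member made up 41.33% of such runs in each Cyp4a12 gene, 20.1% in Cyp4a32, 17.93% in Cyp4a10 and 13.87% in Cyp4a31, and there was none in Cyp4a14 or Cyp4b1. Recovered read numbers of Cyp4a14 and Cyp4b1 were whole (within 0.05 of a read) in 56 of 56 libraries, as were the sums of Cyp4a10, Cyp4a31 and Cyp4a32 and of Cyp4a12a and Cyp4a12b, while those of the single copies were mostly fractions. Reads had thus been shared out within these sets, so that single values of Cyp4a10, Cyp4a31, Cyp4a32, Cyp4a12a and Cyp4a12b are uncertain in how they were split. Promoter sequence was at hand for Cyp4a32 and Cyp4b1, from RefSeq. Neither window of 250 bases before to 50 after the start held AGGTCA on either strand, the core motif of nuclear receptors, which 16.26% of 32851 promoters hold.

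Cyp4a10, Cyp4a14 and Cyp4a31 made up nearly all of the CYP4 message of the kidney. Over the 56 libraries the mean level was 1833 TPM for Cyp4a10, 1721 TPM for Cyp4a14 and 939 TPM for Cyp4a31, which ranked 45, 50 and 130 among 15354 genes. They held 39.1%, 36.7% and 20% of the summed TPM of the members. Cyp4b1 followed with 180 TPM, and then Cyp4a12b with 9.29, Cyp4a32 with 4.88 and Cyp4a12a with 4.79 TPM. The libraries of Cyp4a10 and Cyp4a14 ranged over 1011 to 3196 and 694 to 3537 TPM, and within a library Cyp4a14 was below Cyp4a10 in every NRF mouse, with a ratio of at most 0.936. Cyp4a32 (1.58 to 12.5 TPM) and Cyp4a12a (1.11 to 19.4 TPM) overlapped.

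**Figure D1:**
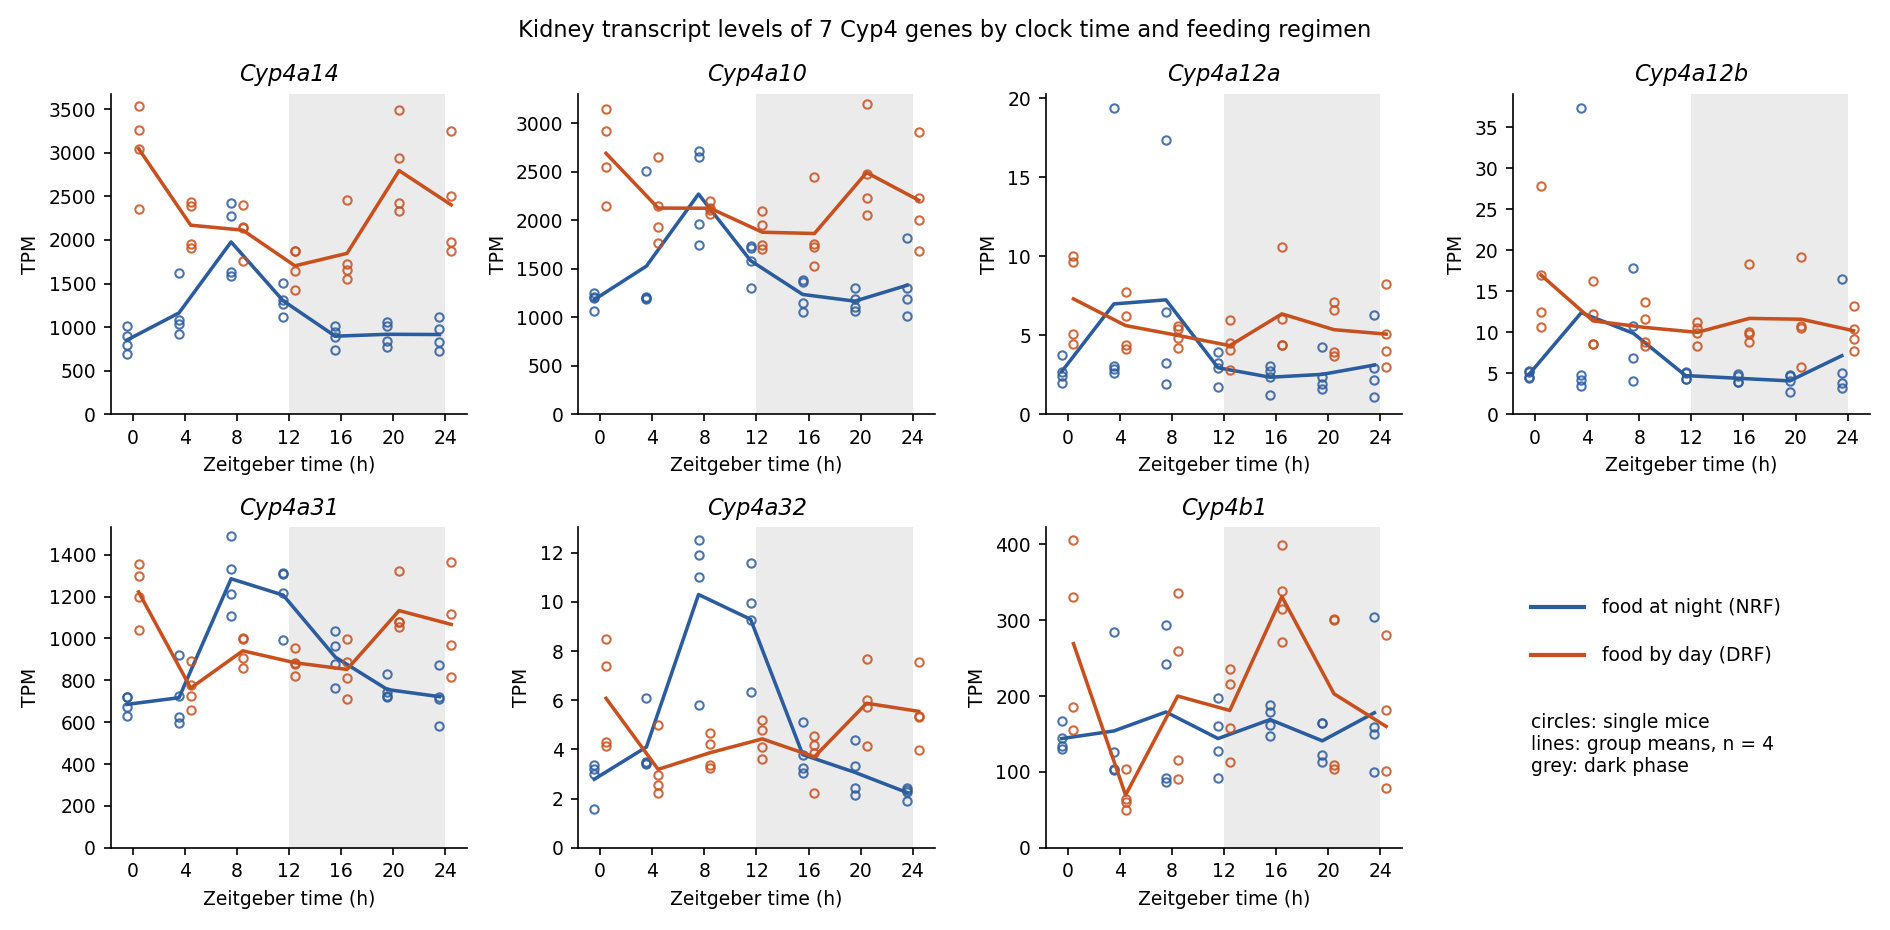
Level (TPM) of each of the 7 genes against zeitgeber time (h). Circles are single mice, lines join the means of 4 mice, blue is NRF, orange DRF and grey the dark phase. Cyp4a14 under DRF stays at group means of 1703 to 3047 TPM, and under NRF it reaches 1977 TPM at ZT8 and 851 to 1302 TPM at the other times.

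Cyp4a14, the member that led the choice of this family, was higher under DRF at all 7 times by group mean, and the libraries of the regimens did not overlap at 5 of them. At ZT0 the NRF mice had 694, 799, 895 and 1016 TPM, and the DRF mice had 2352, 3045, 3256 and 3537 TPM. At ZT4 the NRF mice had 920, 1031, 1079 and 1622 TPM against 1907, 1950, 2386 and 2433 TPM under DRF. Every DRF mouse thus lay above every NRF mouse at these times. At ZT8 the NRF mice had 1583, 1634, 2271 and 2420 TPM and the DRF mice 1762, 2135, 2152 and 2401 TPM. At ZT12 the values were 1117, 1267, 1314 and 1511 TPM under NRF and 1425, 1645, 1871 and 1872 TPM under DRF. These were the times of overlap, and they included the NRF maximum.

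In the dark phase the regimens parted again. At ZT16 Cyp4a14 was at 736, 891, 939 and 1017 TPM under NRF and at 1548, 1650, 1726 and 2459 TPM under DRF. At ZT20 the NRF mice had 767, 836, 1010 and 1059 TPM and the DRF mice 2326, 2419, 2943 and 3490 TPM. At ZT24 they had 728, 831, 983 and 1117 TPM against 1876, 1980, 2504 and 3250 TPM. Again no libraries overlapped, and at ZT20 the gap was wide, from 1059 TPM in the highest NRF mouse to 2326 TPM in the lowest DRF mouse. Among the genes tested, 0.00820% were higher under DRF without overlap at 5 or more times, which is Cyp4a14 itself, and nothing is read from this share because the rule used these values.

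Averaged over the clock times, Cyp4a14 was at 2225 TPM under DRF and 1190 TPM under NRF, a difference of 0.94 ± 0.07 on the log2(TPM + 1) scale (SE, n = 28 a regimen), or 1.92-fold. Cyp4a12b differed by 0.87 ± 0.16, Cyp4a10 by 0.56 ± 0.07 and Cyp4a12a by 0.55 ± 0.16. The 3 others lay lower, with 0.18 ± 0.16 for Cyp4b1, 0.07 ± 0.05 for Cyp4a31 and -0.12 ± 0.09 for Cyp4a32. In the ranking of all genes tested from the largest rise down, Cyp4a14 was at 2, Cyp4a12b at 3, Cyp4a10 at 12 and Cyp4a12a at 13. Cyp4b1 was at 225, Cyp4a31 at 1353 and Cyp4a32 at 11119. The difference was above 0 for 6 of the 7 members and for 36.1% of all genes tested, and above 1.5-fold for 2 members and 0.0902% of all genes, and nothing is read from these counts. The median over all genes was -0.02, and that over the members was 0.55.

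**Figure D2:**
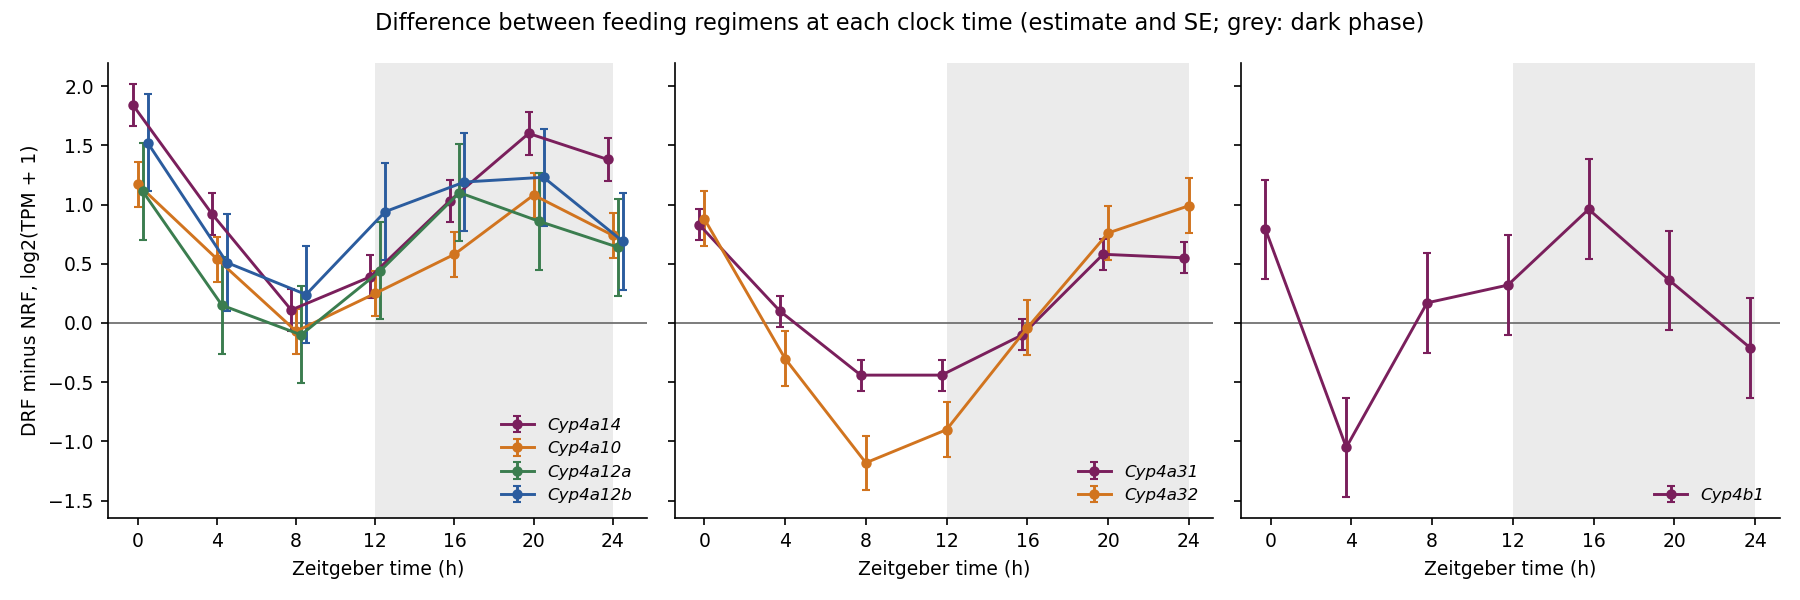
Difference between regimens (DRF minus NRF, log2 of TPM + 1, with its SE from the fit of all 14 groups) of each member at each zeitgeber time (h). Cyp4a14 runs from 1.84 at ZT0 to 0.11 at ZT8, and Cyp4a31 and Cyp4a32 lie below 0 at ZT8 and ZT12.

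The difference varied through the day, and it did so unlike in the individual members. For Cyp4a14 it was 1.84, 0.92, 0.11, 0.39, 1.03, 1.60 and 1.38 from ZT0 to ZT24. For Cyp4a32 it was 0.88, -0.30, -1.18, -0.90, -0.04, 0.76 and 0.99 over the same times. Cyp4a31 ran between 0.83 at ZT0 and -0.44 at ZT8 and ZT12. Cyp4a14 was therefore never lower under DRF by group mean, while Cyp4a31 and Cyp4a32 were lower around the light-to-dark change and higher around the dark-to-light change.

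Counted by time, libraries of the regimens did not overlap with DRF higher for 6 of 7 members at ZT0, where 9.81% of all genes did so. In the light phase the count was 1 at ZT4 (7.54% of all genes) and 0 at ZT8 (7.12%), and at lights off it was 1 (ZT12, 8.85%). Later in the dark it was 5 for ZT16 (4.82%) and 4 for ZT20 (8.04%), and it was 2 for ZT24 (7.01%). At ZT24 the highest NRF values of Cyp4a10, Cyp4a12a, Cyp4a12b and Cyp4a31 came from the library whose number is on no label. The other NRF mice at ZT24 lay below every DRF mouse in these genes, so the ZT24 count depends on that library. At ZT4 the highest NRF values of Cyp4a10, Cyp4a12a and Cyp4a12b came from the NRF ZT4 library of replicate 3. The other NRF mice at ZT4 lay below every DRF mouse in these genes, so the ZT4 count depends on that library. With DRF lower, Cyp4a31 and Cyp4a32 did not overlap at both ZT8 and ZT12, 2 of 7 members, against 4.62% of all genes. Nothing is read from these counts, since the contrast chose the genes.

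The make-up of the CYP4 message differed with the regimen in the same descriptive sense. Cyp4a14 held 27.8% to 34.4% of the summed TPM in the NRF groups and 36.5% to 42.3% in the DRF groups. The ratio of Cyp4a14 to Cyp4a10, genes with no coding run in common, was 0.698 to 0.873 in the NRF groups and 0.908 to 1.13 in the DRF groups. Cyp4a31 held 20.6% to 28.4% under NRF and 14.8% to 19.0% under DRF. The summed level was lowest at 2872 ± 246 TPM (NRF ZT0) and highest at 7258 ± 1177 TPM (DRF ZT0, SD, n = 4 each).

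The Cyp4a12 pair, low in these kidneys, had a regimen difference with more scatter. Cyp4a12b at ZT20 was at 2.69, 4.09, 4.69 and 4.84 TPM under NRF and at 5.78, 10.5, 10.8 and 19.2 TPM under DRF, with no overlap. At ZT4 it was at 3.47, 4.14, 4.75 and 37.4 TPM under NRF and at 8.52, 8.59, 12.2 and 16.3 TPM under DRF. The NRF value of 37.4 TPM came from the library that stood apart, and it was the highest of all 56. Without that library the difference over the day was 0.99 for Cyp4a12b and 0.65 for Cyp4a12a.

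Set by feeding instead of clock time, and taking the food phase as the light or the dark phase, Cyp4a14 and Cyp4a10 had the higher mean under DRF at each matched stage. At 8 h into the food-free phase Cyp4a14 was at 2795 ± 537 TPM under DRF (ZT20, SD, n = 4) and 1977 ± 431 TPM under NRF (ZT8). At the end of the food-free phase it was at 2725 ± 630 TPM (DRF, ZT0 and ZT24, n = 8) and 1302 ± 163 TPM (NRF, ZT12, n = 4). At 4 h into the food phase the values of Cyp4a14 were 2169 ± 279 TPM (DRF, ZT4) and 896 ± 119 TPM (NRF, ZT16). Cyp4a31 was at 1145 ± 196 TPM (DRF) and 1207 ± 149 TPM (NRF) at the end of the food-free phase, and Cyp4a32 at 5.82 ± 1.75 and 9.29 ± 2.21 TPM. These values stand side by side at different clock times and were not tested.

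To ask whether the members kept a daily rhythm in each regimen, a 24-h cosine was fitted to the 28 libraries of each regimen with limma. The p-values were adjusted by Benjamini-Hochberg over all genes tested. A fit within a single regimen does not hold the level difference, but the members were chosen with earlier results of these data known. Under NRF, Cyp4a10, Cyp4a14, Cyp4a31 and Cyp4a32 were rhythmic, 4 of 7 members against 54.5% of all genes, with peaks late in the light phase. Under DRF, Cyp4a14, Cyp4a31 and Cyp4b1 were rhythmic, 3 of 7 against 36.1% of all genes. The amplitude is the height of the cosine above its mean in log2 units. The median amplitude of the members was 0.46 under NRF and 0.21 under DRF, and that of all genes was 0.13 and 0.11.

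Cyp4a14 had an amplitude of 0.529 ± 0.0779 under NRF with its peak at 8.5 ± 0.5 h (SE, adjusted p = 1.07e-05). Under DRF its amplitude was 0.321 ± 0.0683 with the peak at 23.5 ± 0.9 h (adjusted p = 0.0024), although this call was lost without replicate 2 of every group (adjusted p = 0.064). The rhythm of Cyp4a14 was therefore found in both regimens and stood 15 ± 1.1 h later under DRF, counted forward in time. On a cycle of 24 h a shift counted as later can as well be counted as earlier, and the data do not tell these apart.

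Cyp4a10, its partner as a PPARA target, had an amplitude of 0.409 ± 0.0800 under NRF with a peak at 8.3 ± 0.7 h (adjusted p = 4.09e-04). Under NRF at ZT8 the mice had 1745, 1959, 2656 and 2716 TPM, and at ZT20 they had 1069, 1106, 1186 and 1303 TPM. No mouse at ZT20 reached the lowest at ZT8. Under DRF the amplitude was 0.186 ± 0.0618 and missed the threshold (adjusted p = 0.053), and it passed in 8 alternatives, among them the fit without ZT24 (adjusted p = 0.022) and the summed reads of its near-identical copies (adjusted p = 0.044).

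Cyp4a31 and Cyp4a32, the copies nearest to Cyp4a10 in sequence, had later peak estimates under NRF, at 11.0 ± 0.5 and 9.9 ± 0.4 h. Peak times were not tested between genes, and these copies share reads that were split by estimation. Cyp4a32 had the largest NRF amplitude of the family, 0.863 ± 0.0903 (adjusted p = 5.76e-08). Its mice had 5.81, 11.0, 11.9 and 12.5 TPM at ZT8 and 6.32, 9.28, 9.94 and 11.6 TPM at ZT12 under NRF. At ZT24 they had 1.92, 2.26, 2.36 and 2.44 TPM. No ZT24 library overlapped with those of ZT8 or ZT12, on 18.5 to 132 estimated reads a library. Cyp4a31 had an amplitude of 0.442 ± 0.0550 (adjusted p = 9.75e-07).

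The DRF rhythm of Cyp4a31 was smaller, 0.205 ± 0.0631 with a peak at 21.6 ± 1.2 h (adjusted p = 0.033), and it was lost in 9 alternatives, among them without ZT24 (adjusted p = 0.052) and without ZT0 (adjusted p = 0.17). Cyp4a32 under DRF had an adjusted p of 0.070 for the cosine and of 0.022 for any difference among the 7 times. The copies of the Cyp4a12 pair were not called in either regimen, with adjusted p of 0.070 and 0.10 under NRF and of 0.59 and 0.60 under DRF for Cyp4a12a and Cyp4a12b.

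**Figure D3:**
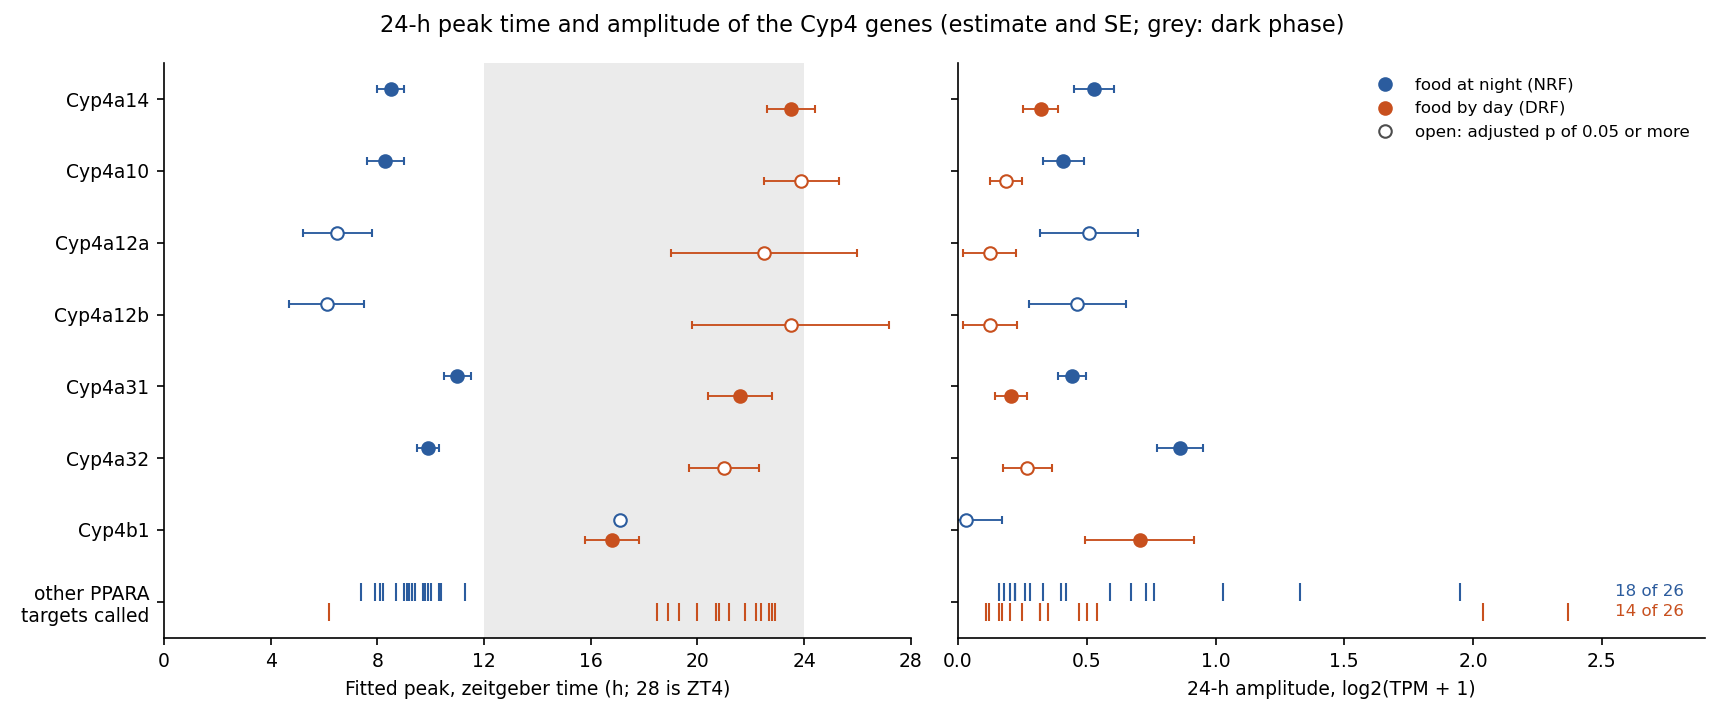
Peak time (zeitgeber time, h) and amplitude (log2) of the fitted 24-h cosine of each member, with SE, in NRF (blue) and DRF (orange). Open points are those with an adjusted p of at least 0.05, ticks mark the peaks of the other PPARA target genes with a rhythm, and the NRF peak of Cyp4b1 has no bar because its amplitude is near 0. The called Cyp4a peaks lie at 8.3 to 11.0 h under NRF and at 21.6 and 23.5 h under DRF.

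The rhythm itself differed between regimens in 4 of 7 members, against 45.5% of all genes, by the interaction of regimen with the cosine. The fit takes up the mean difference in a separate term, but the interaction is still built from regimen differences at single times. Nothing is read from the count, since that contrast chose the genes. The adjusted p was 1.84e-07 for Cyp4a14, 1.23e-04 for Cyp4a10, 1.53e-07 for Cyp4a31 and 1.01e-08 for Cyp4a32. Counted forward in the same way, peaks under DRF came later by 15.6 ± 1.6 h in Cyp4a10, 10.6 ± 1.3 h in Cyp4a31 and 11.0 ± 1.4 h in Cyp4a32. The DRF amplitude was 0.607 of the NRF amplitude in Cyp4a14, 0.455 in Cyp4a10, 0.465 in Cyp4a31 and 0.312 in Cyp4a32. For Cyp4b1, Cyp4a12a and Cyp4a12b the adjusted p of the interaction was 0.082, 0.086 and 0.16.

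Cyp4b1 showed the reverse pattern of calls, although the interaction missed the threshold. Under NRF no rhythm was called (amplitude 0.0327 ± 0.139, adjusted p = 0.98), and under DRF its amplitude was 0.705 ± 0.210 with a peak at 16.8 ± 1.0 h (adjusted p = 0.028). At DRF ZT4 the mice had 49.5, 60.9, 64.0 and 104 TPM, and at DRF ZT16 they had 271, 315, 338 and 399 TPM. These DRF groups did not overlap. The NRF mice had 102, 104, 126 and 285 TPM at ZT4 and 147, 162, 179 and 188 TPM at ZT16, and these groups overlapped. That overlap rested on the value of 285 TPM, from the library that stood apart. The other NRF mice at ZT4 (102 to 126 TPM) lay below all those at ZT16, the same order as under DRF. Other DRF groups were split, with 104, 109, 300 and 301 TPM at ZT20 and 90.1, 116, 259 and 336 TPM at ZT8. The DRF call was lost without replicate 1 (adjusted p = 0.16), replicate 3 (adjusted p = 0.11) or replicate 4 (adjusted p = 0.076) of every group and with library weights (adjusted p = 0.064).

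A second daily peak was sought with 12-h terms added to the 24-h ones. Under NRF 0 of 7 members were called by limma (3 at an unadjusted p under 0.05, and 0 called by voom on the recovered reads), against 0.672% of all genes. Under DRF 2 of 7 did, against 24.7% of all genes. Cyp4a31 had a 12-h amplitude of 0.231 ± 0.0529 with peaks at 9.8 and 21.8 h (adjusted p = 0.0060), and Cyp4a32 had 0.291 ± 0.0835 with peaks at 10.2 and 22.2 h (adjusted p = 0.031). Without replicate 1 of every group neither was called (adjusted p = 0.15 and 0.35), and Cyp4a32 was also lost without replicate 3 (0.061) or 4 (0.090). Cyp4a31 under DRF was at 660, 723, 779 and 891 TPM at ZT4 and at 859, 908, 996 and 1002 TPM at ZT8. At ZT16 it was at 710, 813, 887 and 999 TPM, and at ZT20 at 1053, 1077, 1079 and 1324 TPM. At ZT12 it was at 820, 876, 884 and 955 TPM. No ZT20 library overlapped with those of ZT16, while the libraries of ZT8 and ZT12 overlapped with those of ZT16.

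A contrast without a cosine set the dark phase (mean of ZT16 and ZT20) against the light phase (mean of ZT4 and ZT8). Under NRF, 5 of 7 members were lower in the dark, against 31.4% of all genes, and the median of the members was -0.72 on the log2 scale against -0.07 for all genes. Cyp4a14 fell by 0.72 ± 0.13 (adjusted p = 6.58e-06), Cyp4a32 by 0.77 ± 0.16 (1.13e-04) and Cyp4a10 by 0.59 ± 0.13 (2.89e-04). The Cyp4a12 copies fell by 0.87 ± 0.29 (Cyp4a12a, adjusted p = 0.014) and 0.80 ± 0.29 (Cyp4a12b, 0.023), and both calls were lost without the NRF ZT4 library of replicate 3, at -0.57 (adjusted p = 0.078) and -0.44 (0.14). With ZT0 added to the light and ZT12 to the dark window, Cyp4a14 was the 1 member still called under NRF (-0.28, adjusted p = 0.040), and the calls of Cyp4a10 (-0.25, adjusted p = 0.074), Cyp4a32 (-0.03, 0.89) and the Cyp4a12 pair were lost.

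Under DRF, Cyp4b1 was the member that passed the test between dark and light, higher in the dark by 1.16 ± 0.29 (adjusted p = 0.0027), and 7.52% of all genes were higher. That call was lost with the wider windows (0.60, adjusted p = 0.073). The 6 other members had estimates from 0.01 to 0.33 that missed the threshold. The test of the difference between regimens was passed by 5 of 7 members, all with the more positive value under DRF, against 21.5% of all genes in that direction. This test is built from the regimen differences at ZT4, ZT8, ZT16 and ZT20 described above. Nothing is read from the count, since that contrast chose the genes. The difference was 0.59 ± 0.19 for Cyp4a10 (adjusted p = 0.010), 0.79 ± 0.18 for Cyp4a14 (4.22e-04), 0.41 ± 0.13 for Cyp4a31 (0.012), 1.10 ± 0.23 for Cyp4a32 (1.47e-04) and 1.10 ± 0.42 for Cyp4b1 (0.035). The Cyp4b1 call was lost without the NRF ZT4 library of replicate 3 (0.93, adjusted p = 0.075). With ZT0 and ZT12 added to the light and dark windows none of these differences was called, and that of Cyp4a31 turned to -0.15 (adjusted p = 0.41).

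ZT24 and ZT0 are the same clock time on following days. By limma, 0 of 7 members were called under NRF, where 83 genes (0.681%) were, and 0 of 7 under DRF, where 0 genes (0%) were. At an unadjusted p under 0.05 there were 0 members under NRF and 1 under DRF, with 495 of all genes under DRF, and voom called 0 members in either regimen and 0 genes under DRF. The members' estimates of ZT24 minus ZT0 ran from -0.20 to 0.21 under NRF and from -0.81 to -0.09 under DRF.

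Some of the members varied together between groups and others did not. Over the 14 group means the Pearson correlation was 0.99 between Cyp4a10 and Cyp4a14, 0.91 between Cyp4a31 and Cyp4a32 and 0.95 between Cyp4a12a and Cyp4a12b. It was 0.65 between Cyp4a14 and Cyp4a31, 0.23 to 0.40 between the Cyp4a12 pair and Cyp4a31 or Cyp4a32, and 0.12 to 0.28 between Cyp4b1 and the others. These are descriptions: the values share libraries and scaling, and within the copy sets they share reads.

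After the group mean was taken away, the deviations of the 56 libraries still correlated at 0.88 between Cyp4a10 and Cyp4a14 (0.87 without the library that stood apart) and at 0.58 between Cyp4a14 and Cyp4b1 (0.54 without it). The spread within groups (SD of log2), with the library that stood apart included, was 0.61 for Cyp4a12a, Cyp4a12b and Cyp4b1, at percentile 98.2 of all genes tested. It was 0.33 for Cyp4a32, 0.27 for Cyp4a10, 0.26 for Cyp4a14 and 0.19 for Cyp4a31.

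Kap, an androgen-regulated proximal tubule gene and one of the most abundant messages of these kidneys, ran the other way. It took 3.25% to 16.1% of the TPM in a library. Its deviations correlated with those of the members at -0.74 (Cyp4a12b), -0.72 (Cyp4b1), -0.68 (Cyp4a12a), -0.67 (Cyp4a14), -0.64 (Cyp4a10), -0.45 (Cyp4a31) and -0.43 (Cyp4a32). With Kap and the members left out of the scaling the values were -0.70, -0.69, -0.63, -0.57, -0.53, -0.25 and -0.34 in the same order. In the NRF ZT4 library of replicate 3, Kap was at 36225 TPM against 46025 to 93687 TPM in the rest of its group. The part of Kap, or of what moves with it, in the members' values was not tested. Against the proximal tubule S1 and S2 markers the members' deviations correlated at 0.32 to 0.48, against the S3 markers at -0.03 to 0.22, against the liver markers at 0.12 to 0.42 and against the adipose markers at -0.11 to 0.18.

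**Figure D4:**
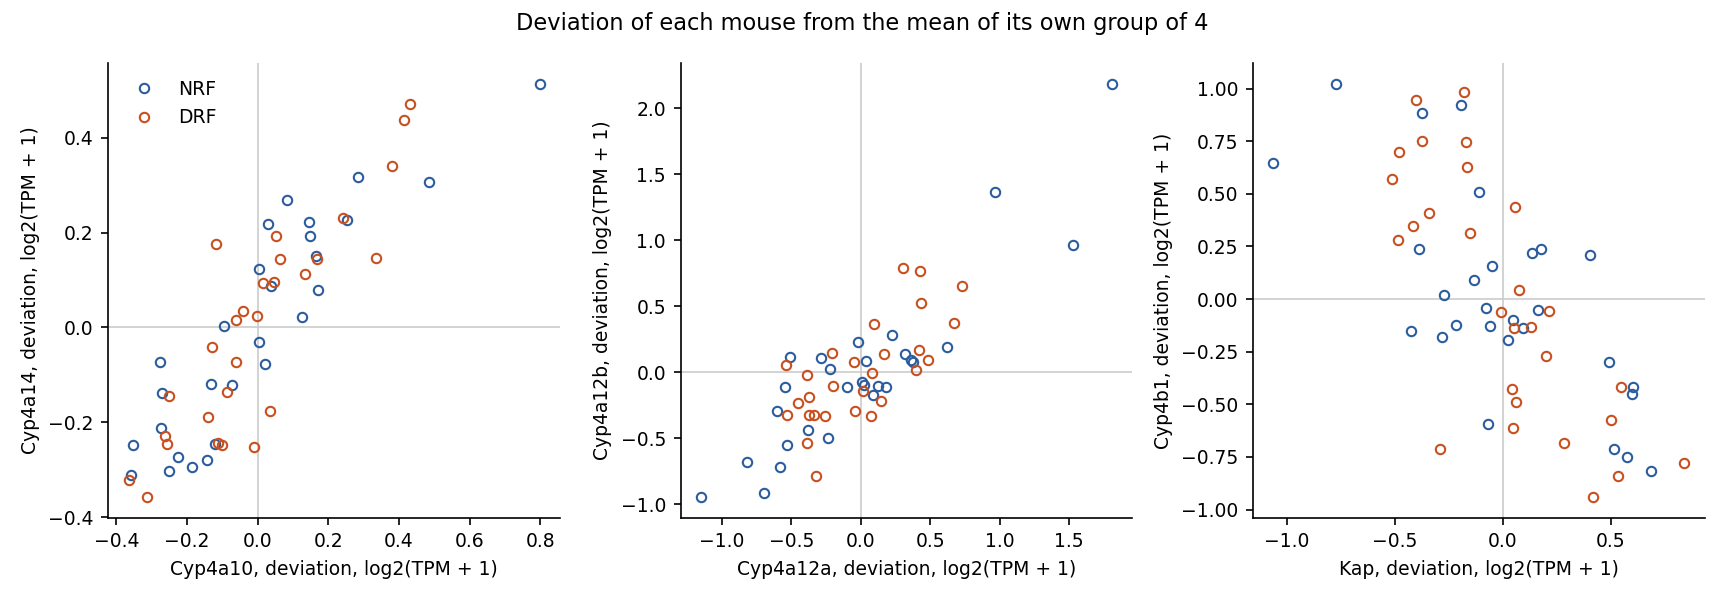
Deviation of each of the 56 libraries from the mean of its own group (log2 of TPM + 1), for Cyp4a10 against Cyp4a14, Cyp4a12a against Cyp4a12b, and Kap against Cyp4b1. The correlations are 0.88, 0.85 and -0.72, over libraries that share scaling and, for the Cyp4a12 pair, reads.

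The genes around the CYP4 step were read through lists of 100 tested genes in all. In level over the day, 1 of them was higher and 3 were lower under DRF by limma, where 3.13% of all genes were higher and 6.16% lower. These counts moved with the scaling: 4 were higher with median-of-ratios scaling, 5 with log2(CPM + 1) and 5 with voom, while of all genes called, 382 of 1133 were higher as reported and 601 of 1188, 635 of 1187 and 637 of 1175 in these alternatives. With library weights 9 were higher and 8 lower. Retsat, a retinol saturase and PPARA target, was higher by 0.32 ± 0.05 (adjusted p = 2.37e-05). Ppard, the receptor related to PPARA, was lower by 0.53 ± 0.07 (difference -0.53, adjusted p = 3.55e-07), at 21.7 TPM under DRF and 44.8 TPM under NRF. Cyp2j8, an epoxygenase, differed by -0.23 ± 0.07 (adjusted p = 0.037). Mknk1, a kinase gene within 250 kb of the cluster, differed by -0.09 ± 0.02 (adjusted p = 0.014), a call that voom did not make. Ppara itself differed by -0.03 (adjusted p = 0.80).

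**Figure D5:**
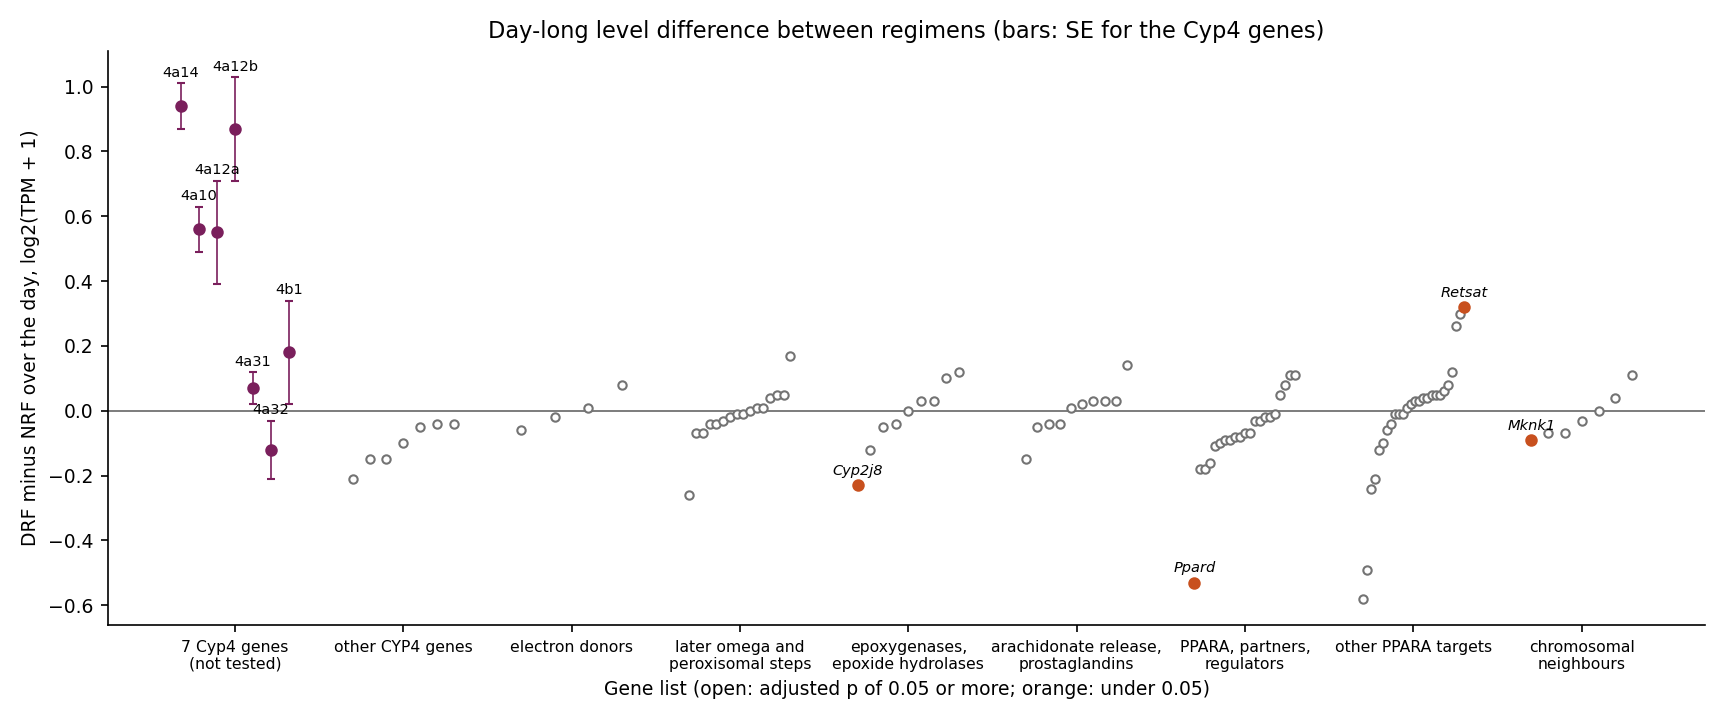
Difference in level over the day (DRF minus NRF, log2 of TPM + 1) of the 7 members and of the tested genes of 8 lists, 1 point a gene. Genes past the threshold are in orange (Retsat, Ppard, Cyp2j8 and Mknk1), and the members carry no test. Cyp4a14 and Cyp4a12b lie at 0.94 and 0.87, above the listed genes.

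Of the 7 other CYP4 genes tested, 0 were called in level by limma and 0 by voom, with 2 at an unadjusted p under 0.05. Cyp4v3, an ω-hydroxylase gene outside the cluster, differed by -0.15 ± 0.06 (adjusted p = 0.087), and Cyp4f17 by -0.04 ± 0.04 (0.53). Rhythm was called in 5 of 7 under NRF and 3 of 7 under DRF, with 4 of 7 interactions, where 54.5%, 36.1% and 45.5% of all genes were called. Cyp4v3 had its NRF peak at 8.6 h and its DRF peak at 21.5 h (interaction adjusted p = 7.45e-06). Cyp4f17 was lower in the dark by 0.34 ± 0.06 under NRF (-0.34, adjusted p = 3.05e-05) and higher by 0.50 ± 0.06 under DRF (1.15e-07).

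Among the electron donors, 0 of 4 were called in level by limma or voom (1 at an unadjusted p under 0.05). Of these 4, 3 were rhythmic under NRF (54.5% of all genes) and 1 under DRF (36.1%). Por, the reductase that feeds electrons to all CYP4 enzymes, had its NRF peak at 12.0 h (amplitude 0.32, adjusted p = 8.00e-08) and its DRF peak at 9.0 h (0.12, adjusted p = 0.038). Its level was 301 TPM in NRF mice and 288 TPM in DRF mice.

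The later steps of ω-oxidation and peroxisomal breakdown held 16 tested genes, of which 0 were called in level by limma and 1 by voom (1 at an unadjusted p under 0.05), 11 were rhythmic under NRF (54.5% of all genes) and 9 under DRF (36.1%), and 10 had an interaction (45.5%). Ehhadh, the bifunctional enzyme of peroxisomal β-oxidation, had 916 TPM in NRF and 1184 TPM in DRF mice (0.17 ± 0.06, adjusted p = 0.083). Its NRF peak was at 11.3 h and its DRF peak at 21.3 h. Acsl1, an acyl-CoA synthetase, was higher in the dark under DRF by 0.96 ± 0.08 (adjusted p = 5.22e-12) and lower under NRF (-0.32 ± 0.08, adjusted p = 0.0019). Abcd3, the peroxisomal importer of long-chain dicarboxylic acids, turned from an NRF peak at 10.8 h to a DRF peak at 21.3 h (interaction adjusted p = 1.34e-10).

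Of 26 other PPARA targets tested, 18 were rhythmic under NRF (54.5% of all genes), 14 under DRF (36.1%), and 19 had an interaction (45.5%). Under NRF 18 were called lower in the dark (31.4% of all genes), and under DRF 9 were called higher (7.52%). Pdk4, which spares glucose in fasting, had an NRF peak at 7.4 h (amplitude 1.03) and a DRF peak at 20 h (2.37). Cpt1a, which brings fatty acids to the mitochondria, peaked at 9.0 h (0.67) and 20.8 h (0.47). Angptl4, an inhibitor of lipoprotein lipase, peaked at 9.3 h (1.95) and 18.9 h (2.04), with a level difference of 0.30 ± 0.16 (adjusted p = 0.27). Pdk4, Cpt1a and Angptl4 had amplitudes above those of Cyp4a14, which were 0.529 under NRF and 0.321 under DRF. The median amplitude over the 26 targets lay below Cyp4a14, at 0.30 under NRF and 0.21 under DRF. No test compared the genes.

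Ppara followed the same hours under NRF, with an amplitude of 0.61 and a peak at 9.6 h (adjusted p = 6.16e-07). Under DRF its rhythm was not called (amplitude 0.17, adjusted p = 0.13), and the interaction was (6.36e-07). Of the 21 genes of PPARA, its partners and known regulators of Cyp4a genes, 11 were rhythmic under NRF (54.5% of all genes), 10 under DRF (36.1%) and 10 had an interaction (45.5%). Rxra, the partner of PPARA on DNA, differed in level by -0.02 ± 0.04 (adjusted p = 0.82).

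The epoxygenases and epoxide hydrolases make and clear the other P450 products of arachidonic acid. Of 9 tested, 0 were higher in level and 1, Cyp2j8, was lower, and 6 were rhythmic under NRF (54.5% of all genes) and 3 under DRF (36.1%). Cyp2j5, an abundant renal epoxygenase at 1904 TPM, differed by 0.12 ± 0.04 (adjusted p = 0.060). Of 10 genes of arachidonic acid release and the prostaglandin branch, 0 were called in level by limma or voom, with 2 at an unadjusted p under 0.05. Of 7 tested neighbours within 250 kb of the cluster, 6 were rhythmic under NRF (54.5% of all genes) and 1 under DRF (36.1%). In level limma called 0 of them higher and 1, Mknk1, lower, and voom called 0.

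The genes whose 14 group means were most like those of each member were sought among 8466 genes of at least 10 TPM, with the 7 members themselves left out of the search. For Cyp4a14 they were Ech1 (r = 0.903), an isomerase of fatty acid β-oxidation, Rpl22 (0.891) and Mad2l2 (0.89), and for Cyp4a10 Ech1 (0.924), Mad2l2 (0.92) and Rpl22 (0.891). For Cyp4a31 they were the mitochondrial and peroxisomal β-oxidation genes Decr1 (0.955), Acadl (0.952) and Eci2 (0.95). For Cyp4a32 they were Crat (0.972), the carnitine acetyltransferase, Eci2 (0.954) and Adhfe1 (0.942). Cyp4a12a was most like Fah (0.869), Rpl7 (0.864) and Rpl22 (0.863), Cyp4a12b most like Rabggtb (0.905), Cp (0.885) and Polr1d (0.877), and Cyp4b1 most like Clrn3 (0.928), Acadsb (0.821) and Atxn1l (0.813). These correlations are a description over 14 group means that share libraries and depth.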

How the data were processed

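Poly(A) RNA of 56 mouse kidneys was sequenced by the study as 100-base paired reads on a BGISEQ-500 instrument. The submitters' processing notes name HISAT2, Bowtie2 and RSEM with mm10 and GRCm38.p6. The authors deposited 1 table of values called TPM, and the tests had been designed for TPM, but the deposited values behaved as a score in another unit: log2(CPM + 1) divided by exon length and scaled to column sums of 999145 to 999753. Reads were recovered from the steps of these values at GENCODE M21 exon lengths or searched lengths, which gave whole reads for 90.15% of genes and, in those, for 98.73% of values (within a tolerance of at most 0.15 reads). Values of genes with fractional reads were left out, except the members, which were kept at annotated lengths. Recovered reads per library were 22.2 to 24.6 M, and TPM was computed anew over the genes kept.

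Values of genes whose TPM averaged 1 or more were fitted as log2(TPM + 1) by limma 3.58.1 (R 4.3.3) under a mean-variance trend, and p-values were adjusted by Benjamini-Hochberg over all 12196 genes, with calls at 0.05. A fold change on this scale understates changes of low genes. Rhythms used 24-h and 12-h cosines in each regimen, and contrasts came from 1 fit over the 14 groups, with ZT0 and ZT24 averaged to a common clock time. The scripts were tested on simulated data. Summary statistics were made with Python 3.11.15, numpy 2.4.6 and pandas 2.3.3. Any 2 libraries of a group differed by at least 3.31 times the counting noise, and precision from depth covers counting error only. The labels do not state separate cages or litters, so p-values measure only the spread between these samples, part of which may be technical.

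The members and lists were chosen with earlier results of these data known. Named are the 7 members, at most 4 genes a list and test, and the 3 genes of at least 10 TPM most like each member. Listed genes without recovered reads or not in the table used, such as Acaa1a, Acot1, Acot3 and Cyp4x1, were not analysed here. Alternatives were other scalings, units, pseudocounts, filters, windows, gene lengths, weights, left-out replicates and times, and a replicate block. Those added after the data were seen were voom on recovered reads, the fit without the NRF ZT24 library that carries no replicate number of the labels, the fit without the NRF ZT4 library of replicate 3, and scaling without Kap and the members.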

Additional observations from a re-analysis of the deposited data

Results flagged for a closer look

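In 8 of 98 sets of 4 mice (each member in each group) 1 mouse lay far from the other 3, where chance alone marks about 1 in 20. The NRF ZT4 mouse of replicate 3 gave 5 of them: Cyp4a10 at 2508 TPM (others 1192 to 1211), Cyp4a12a at 19.4 TPM (2.60 to 3.04), Cyp4a12b at 37.4 TPM (3.47 to 4.75), Cyp4a32 at 6.09 TPM (3.40 to 3.47) and Cyp4b1 at 285 TPM (102 to 126). In that mouse Kap was at 36225 TPM and the S3 marker Slc7a13 at 8.63 TPM (others 0.719 to 2.45), and the part of either was not tested. Cyp4a12b stood out in DRF ZT16 replicate 3, at 18.3 TPM (8.77 to 10.1), and in the NRF ZT24 library whose number is on no label, at 16.5 TPM (3.24 to 5.02). Cyp4a31 stood out in DRF ZT20 replicate 1, at 1324 TPM (1053 to 1079).

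The dark-minus-light difference was itself different between the regimens (limma, log2, DRF minus NRF) for Cyp4a10 (0.59), Cyp4a14 (0.79), Cyp4a31 (0.41), Cyp4a32 (1.10) and Cyp4b1 (1.10). It is built from the regimen differences at single times that chose the genes, so nothing is read from the number of calls. None of the 5 was called with the wider windows, where Cyp4a31 turned to -0.15, and Cyp4b1 was not called without the NRF ZT4 library of replicate 3 (0.93, adjusted p = 0.075). The 24-h rhythm also differed between regimens by the interaction, with an adjusted p of 1.23e-04 for Cyp4a10, 1.84e-07 for Cyp4a14, 1.53e-07 for Cyp4a31 and 1.01e-08 for Cyp4a32. It too is built from regimen differences at single times, and nothing is read from the number of calls.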

How the results depend on the processing

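Over 25 alternatives, 233 of the counts of members or list genes recomputed stayed on their side of the threshold or within 1.5 times, 19 fell and 13 rose, and the cause was not tested beyond what each alternative removes. With each replicate number left out in turn, the members called ranged over 1 to 3 for the DRF rhythm, 0 to 2 for the 12-h component under DRF, 3 to 6 for dark against light under NRF, 1 to 2 under DRF and 2 to 4 for the difference between regimens, while listed genes with a higher level stayed at 1 and those with a lower level ranged over 1 to 4. The filter of mean TPM at least 5, which removes Cyp4a12a and Cyp4a32, left 1 with a 12-h component and 3 lower in the dark under NRF. The wider windows left 1 (NRF), 0 (DRF) and 0 (difference), and there Cyp4a31 turned to -0.15. Without the NRF ZT4 library of replicate 3, 3 were lower in the dark under NRF. Under DRF, 3 differed with library weights and 2 with Kap and the members left out of the scaling. With the deposited values taken as TPM, 3 members passed the difference, and level differences shrank to 0.08 (Cyp4a10) and 0.14 (Cyp4a14). Listed genes higher in level (1 as reported) numbered 4 with median-of-ratios scaling, 5 with log2(CPM + 1), 5 with voom, 9 with library weights, 3 without ZT24 and 2 each with deposited values, without the NRF ZT4 library of replicate 3 and without Kap and the members. Those lower (3) numbered 1 with deposited values, 8 with library weights and 6 without Kap and the members. Of all genes called in level, 382 of 1133 were higher, against 601 of 1188, 635 of 1187 and 637 of 1175 under the first 3 of these.

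The replicate numbers did not pair the mice (median correlation of deviations 0.002 over 351 same-number pairs and 0.006 over 1053 others, with 12 of 55 libraries closest to their own number). A replicate block gave 4 members with a DRF rhythm, adding Cyp4a10 (adjusted p = 0.046), and changed no other count of members. Reads of near-identical copies were split by estimation, so the low members Cyp4a12a, Cyp4a12b and Cyp4a32 are those that depth and sharing limit most.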
